A study of Arabidopsis thaliana with 6 samples.

Results

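The sulfur-deficiency markers described here are 5 Arabidopsis thaliana genes, SDI1, LSU2, GGCT2;1, SHM7 and BGLU28. They were chosen by name, with earlier results of these data known. Each is measured by 1 probe set of the Affymetrix ATH1 array, so they make up 5 of the 22746 probe sets tested. All 6 arrays came from a mixotrophic cell culture, whose cells photosynthesise and also take up organic carbon. The 3 treated samples received 75 µM phytoprostane A1 (PPA1) for 4 h, and the 3 control samples received 0.5% methanol in water for 4 h. PPA1 is an oxylipin of the cyclopentenone type, made in plants when polyunsaturated fatty acids oxidise without an enzyme. The labels name no ecotype, culture line or further agent, and do not say whether the PPA1 samples also held methanol. None of the 9 cell type markers chosen could be matched to a probe set in the table used here, so the labelled culture was not checked against markers.

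Plants take up sulfate, reduce it to sulfide and join the sulfide to O-acetylserine to make cysteine, from which glutathione and methionine are built. When sulfur runs short, O-acetylserine accumulates, and a small group of transcripts, the O-acetylserine cluster, rises with it. These transcripts are widely used as markers of sulfur deficiency. The proteins act at different points of sulfur use. SDI1 restrains glucosinolate synthesis, GGCT2;1 breaks down glutathione, SHM7 belongs to the serine hydroxymethyltransferases of one-carbon metabolism, BGLU28 is a beta-glucosidase linked to glucosinolate breakdown, and LSU2 is a small protein of the LSU (response to low sulfur) family that binds other proteins.

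Values are signals in the authors' normalized intensity units, whose median per array was 41.9 to 51.0. Logged signals were compared with limma, a linear model that shares variance between probe sets, and adjusted p-values are Benjamini-Hochberg values over all 22746 probe sets. The threshold was 0.05. The labels give the replicates as independent but not in what way, so the p-values speak only for the spread among these 6 samples. PPA1 replicate 1 stood apart from the other treated arrays. Among 10135 bright probe sets (mean log2 of 6 or more over the arrays), it correlated with PPA1 replicates 2 and 3 at r = 0.833 to 0.839, and with the controls at 0.826 to 0.851. PPA1 replicates 2 and 3 correlated with each other at 0.987, and control pairs at 0.908 to 0.958. By this measure PPA1 replicate 1 was about as close to the controls as to the other treated arrays. The test of each marker is therefore also given without that array. Since the array was singled out from these same data, calls made without it are not independent support.

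All 5 markers had higher signals in every PPA1 array than in any control array, and 3 of the 5, SDI1, SHM7 and BGLU28, passed the test as rises. Across all probe sets, 0.809% were called higher and 10.8% had every PPA1 array above every control array. As the markers were chosen with earlier results known, these shares serve as background and not as a test of the group. At an unadjusted p under 0.05 all 5 passed, as did 8.26% of all probe sets as higher. The median log2 change of the 5 markers was 3.02, or 8.13-fold, beside a median of -0.21 over all tested probe sets. Relative to each array's own median signal, the changes ran from 2.42 for LSU2 to 5.23 for SDI1. RNA from a culture does not tell apart a change in the number of cells that hold a transcript from a change in its amount per cell. Without PPA1 replicate 1, 4 of the 5 markers passed (6.32% of all probe sets were then called higher), LSU2 being the added one. Within replicates 2 and 3 alone 4 passed (3.38% of all probe sets), all but SDI1. With limma's array weights all 5 passed (9.36%). The weights were estimated from these same arrays, so those calls are not independent support either. Leaving out any other single array left 0 of the 5 called, as it did over all probe sets (limma, smallest adjusted p among the 5 from 0.0517 to 0.120, with 3 or 4 of them at an unadjusted p under 0.05, where 5.31% to 6.89% of all probe sets were higher). Under a replicate block, which pairs arrays of equal number, limma called 0 of the 5 (adjusted p from 0.135 to 0.252, 4 of them at an unadjusted p under 0.05) and 0 probe sets higher in all (1768, or 7.77%, at an unadjusted p under 0.05). With the block joined to a robust variance trend, a setting chosen after seeing the data, 3 of the 5 passed, beside 3.66% of all probe sets.

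**Figure D1:**
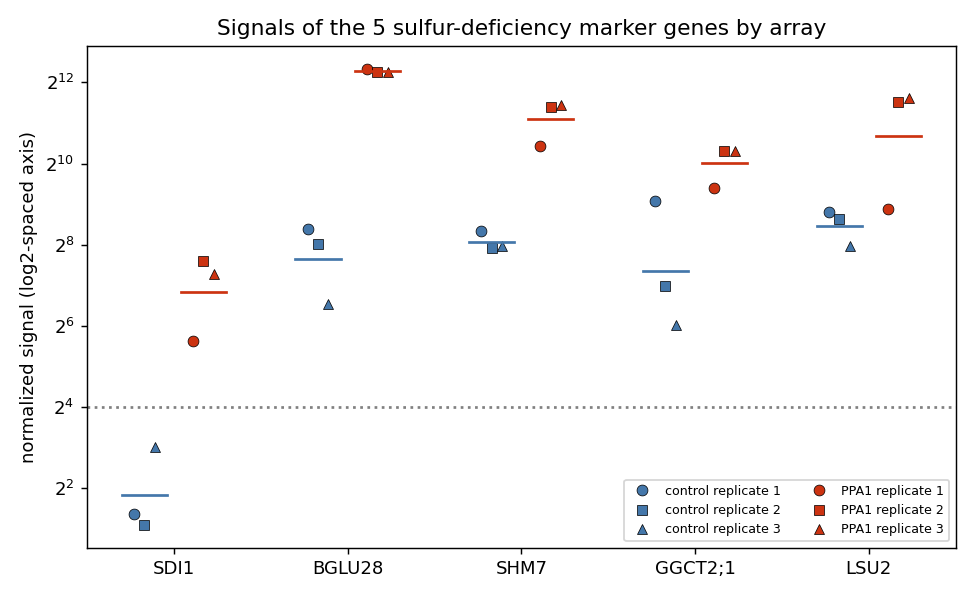
Normalized signal of each marker on the 6 arrays, on a log2-spaced axis, with controls in blue, PPA1 in red, replicates by symbol and horizontal bars at the mean of the log2 signals. The dotted line is a signal of 16, below which all SDI1 controls lay. PPA1 replicate 1 lay at 475 for LSU2, close to the highest control at 449, while BGLU28 was at 4893 or more on all 3 PPA1 arrays.

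BGLU28 (locus AT2G44460, probe set 267389_at) encodes a beta-glucosidase, an enzyme that splits a sugar from its carrier molecule. Its signal was 335, 259 and 92.3 in control replicates 1 to 3, and 5176, 4896 and 4893 in PPA1 replicates 1 to 3. The controls were spread over 3.63-fold, whereas the highest PPA1 signal was 1.06 times the lowest, and the groups were far apart. On the log2 scale the mean went from 7.65 ± 0.98 to 12.28 ± 0.05 (SD, n = 3 each). This is a rise of 4.64 on the log2 scale (SE 0.50), or 24.9-fold (limma adjusted p = 0.0263), larger than that of 99.7% of all probe sets. Without PPA1 replicate 1 it was 4.61 (limma adjusted p = 0.0203). Leaving out any other single array, BGLU28 did not pass (limma adjusted p from 0.0517 to 0.120). The lowest PPA1 signal was 14.6 times the highest control, the widest gap among the 5 markers.

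SHM7 (AT1G36370, 260126_at) encodes a serine hydroxymethyltransferase, a member of the enzyme family that converts serine and glycine into each other while passing on a one-carbon unit. Its signal was 322, 243 and 249 in control replicates 1 to 3, and 1389, 2691 and 2795 in PPA1 replicates 1 to 3. The controls were the tightest of the 5 markers, and PPA1 replicate 1 was the lowest treated array yet 4.31 times the highest control. The log2 mean was 8.07 ± 0.23 without and 11.09 ± 0.57 with PPA1 (SD, n = 3 each). The rise was 3.02 (SE 0.34), or 8.13-fold (limma adjusted p = 0.0279). Without PPA1 replicate 1 the log2 change was 3.35 (limma adjusted p = 0.00722). Leaving out any other single array, SHM7 did not pass (limma adjusted p from 0.0818 to 0.128).

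SDI1 (AT5G48850, 248676_at) encodes a protein with tetratricopeptide repeats that holds down the genes of glucosinolate synthesis. Its signal was 2.57, 2.14 and 8.11 in control replicates 1 to 3, and 49.8, 195 and 155 in PPA1 replicates 1 to 3. All 3 controls lay below 16, the limit taken here for dim probe sets, and all 3 PPA1 arrays lay above it. The log2 mean went from 1.83 ± 1.04 to 6.84 ± 1.06 (SD, n = 3 each). The log2 change of 5.02, SE 0.73, was the largest of the 5 markers (limma adjusted p = 0.0414), but its size rests on control signals near the bottom of the scale. Measured against a signal of 16, the mean after PPA1 was 7.17-fold higher. With 32 added to every signal before taking log2, the log2 change was 2.07, the smallest of the 5, and it still passed (limma adjusted p = 0.0316). Without PPA1 replicate 1 it was 5.62 (limma adjusted p = 0.0156). Leaving out any other single array, SDI1 did not pass (limma adjusted p from 0.0759 to 0.168).

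GGCT2;1 (AT5G26220, 246884_at) encodes a gamma-glutamyl cyclotransferase, which degrades glutathione in the cytosol and frees its amino acids for reuse. Its signal was 540, 126 and 64.4 in control replicates 1 to 3, and 673, 1276 and 1277 in PPA1 replicates 1 to 3. The groups did not overlap, but control replicate 1 was 8.38 times control replicate 3, and the lowest PPA1 signal was only 1.25 times the highest control. The log2 mean went from 7.36 ± 1.57 to 10.01 ± 0.53 (SD, n = 3 each). The log2 change was 2.65 (SE 0.81) with a 95% interval from 0.64 to 4.67, and it did not pass (limma adjusted p = 0.141). The value was 3.51 without control replicate 1, 1.98 without control replicate 3 and 2.96 without PPA1 replicate 1 (limma adjusted p = 0.0872, 0.257 and 0.114). Within replicates 2 and 3 alone it was 3.82 and passed (limma adjusted p = 0.0401).

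LSU2 (AT5G24660, 249752_at) belongs to a family of small proteins, and its neighbour on the chromosome is LSU4, a member of the same family. Whether the probe set also binds transcripts of other LSU genes was not tested. Its signal was 449, 394 and 251 in control replicates 1 to 3, and 475, 2932 and 3157 in PPA1 replicates 1 to 3. PPA1 replicate 1 was only 1.06 times the highest control, while the mean of PPA1 replicates 2 and 3 was 6.41 times that array. The log2 mean went from 8.47 ± 0.44 to 10.68 ± 1.55 (SD, n = 3 each). The log2 change was 2.21 (SE 0.79) with a 95% interval from 0.25 to 4.17, and it did not pass (limma adjusted p = 0.181). Without PPA1 replicate 1, the array nearest to the controls here, it was 3.10 and passed (limma adjusted p = 0.0121). Leaving out any other single array, it did not pass (limma adjusted p from 0.281 to 0.408).

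**Figure D2:**
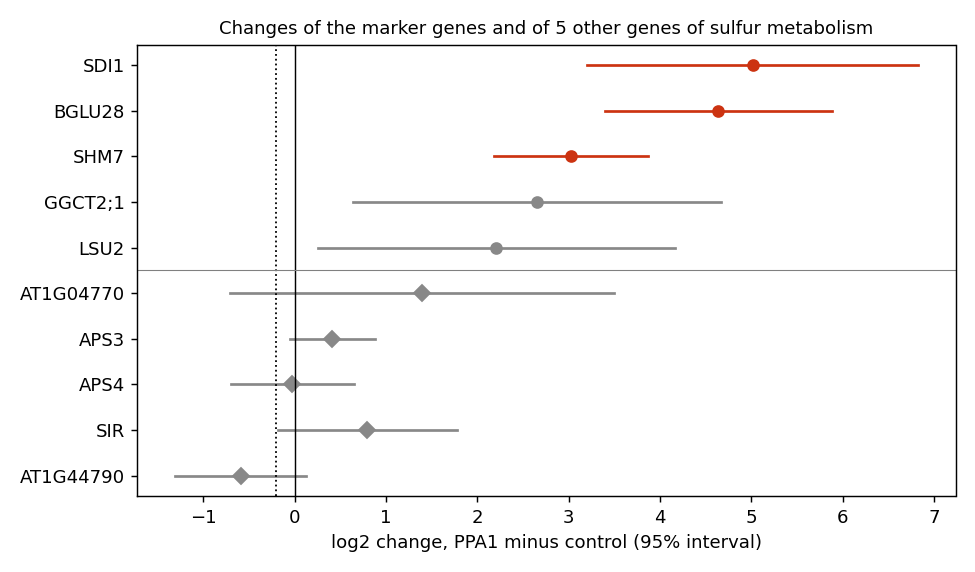
Log2 change from control to PPA1 with its 95% interval from limma, for the 5 markers (circles) and for 5 other genes of sulfur metabolism (diamonds), with those that passed at an adjusted p of 0.05 in red. The dotted line is the median of all probe sets, -0.21. SDI1, BGLU28 and SHM7 are in red, and the intervals of all 5 other genes span 0.

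Ordered by log2 change as deposited, the markers were SDI1, BGLU28, SHM7, GGCT2;1 and LSU2. The place of SDI1 depends on its dim controls, since it came last with 32 added to each signal. Differences between their changes were compared over all 10 pairs by exact permutation (two-sided), where 0.1 is the smallest p that 3 arrays against 3 can give. The test therefore could not pass the threshold for any pair, and the differences are given as values. The log2 change of SHM7 minus that of BGLU28 was -1.62, with no overlap between the groups (exact p = 0.1, 0.2 after adjustment over the 10 pairs). LSU2 and GGCT2;1 minus BGLU28 gave -2.43 and -1.98, also with no overlap (exact p = 0.1 each, 0.2 adjusted). The size of the LSU2 difference depends on PPA1 replicate 1. Without that array the log2 changes were 3.10 for LSU2 and 4.61 for BGLU28. SDI1 minus LSU2 and SDI1 minus SHM7 gave 2.81 and 1.99 (exact p = 0.1 each, 0.2 adjusted), and these 2 differences rest on the dim SDI1 controls. The other 5 pairs overlapped (exact p from 0.3 to 0.8), among them the neighbours SDI1 and BGLU28, SHM7 and GGCT2;1, and GGCT2;1 and LSU2.

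The markers differed in how far PPA1 replicate 1 followed the other treated arrays. Its log2 rise over the control mean was 4.69 for BGLU28, as large as the 4.61 in PPA1 replicates 2 and 3. For SHM7 it was 2.37 of 3.35, for GGCT2;1 2.04 of 2.96 and for SDI1 3.81 of 5.62, which are shares of 70.7%, 68.8% and 67.9%. For LSU2 it was 0.42 of 3.10, a share of 13.6%. As a background, 377 of the bright probe sets were at least 4-fold above the control mean in PPA1 replicates 2 and 3. Their median share was 35.9%, with the 10th percentile at -1.31% and the 90th at 97.9%. In 19.9% of them PPA1 replicate 1 did not exceed the highest control. The share of LSU2 was thus above that of 24.1% of these probe sets, and the share of BGLU28 above that of 91.5%. The shares of SDI1, GGCT2;1 and SHM7 were above those of 74.3%, 75.9% and 77.5%. SDI1 itself was too dim to be among the 377, which include the other markers. The 377 were picked for their rise in PPA1 replicates 2 and 3, a cut not used to choose the markers. That choice can by itself lower the share of PPA1 replicate 1. These shares describe 1 array, so no test was made.

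**Figure D3:**
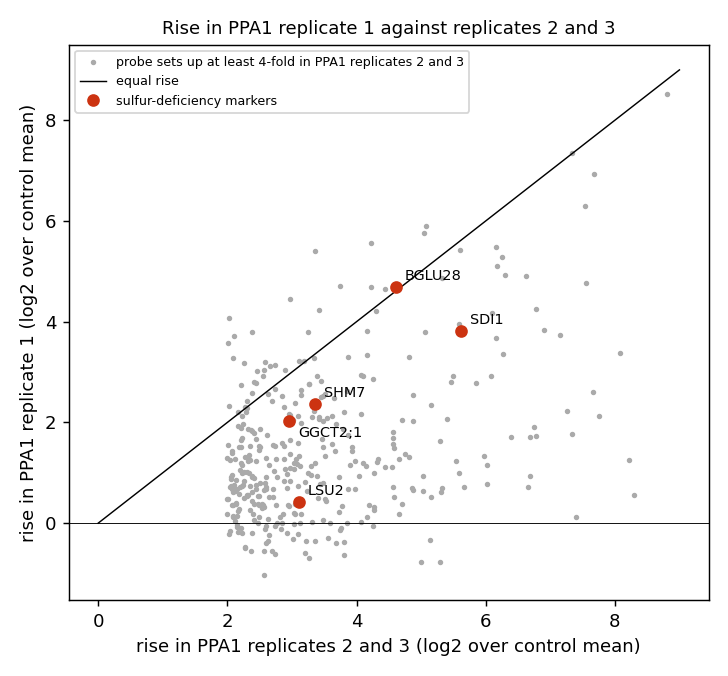
Log2 rise over the control mean in PPA1 replicate 1 (vertical axis) against the mean of PPA1 replicates 2 and 3 (horizontal axis), for 377 probe sets at least 4-fold up in the latter (grey) and the 5 markers (red). BGLU28 lies on the line of equal rise, LSU2 lies near 0 on the vertical axis at 0.42, and the other 3 markers lie between.

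The PPA1 arrays were also set against the same-numbered control, which adds the spread of the controls. In replicate 1 the ratios of PPA1 to control were 15.5 for BGLU28, 19.4 for SDI1, 4.31 for SHM7, 1.25 for GGCT2;1 and 1.06 for LSU2. In replicate 2 they were 18.9, 91.4, 11.1, 10.1 and 7.44 in the same order of genes. In replicate 3 they were 53.0, 19.1, 11.2, 19.8 and 12.6. The SDI1 ratios are taken over control signals below 16, so their size and their spread between replicates rest on dim values. GGCT2;1 and LSU2 were thus nearly level in replicate 1 and 7.44-fold to 19.8-fold apart in replicates 2 and 3, and for GGCT2;1 control replicate 1 was also the highest control.

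Of 49 other genes of sulfur transport, assimilation, cysteine and glutathione metabolism and sulfur deficiency, 5 could be matched to a probe set, and 0 of these 5 passed in either direction (0.809% of all probe sets were called higher and 0.994% lower; limma, 0 of the 5 at an unadjusted p under 0.05). The remaining 44 were not analysed here, among them all 12 sulfate transporters and the 3 reductases of adenylylsulfate (APR). SDI2 (AT1G04770, 261177_at) is listed with the further sulfur-deficiency markers. It measured 58.7, 48.0 and 37.2 in control replicates 1 to 3, and 32.2, 211 and 282 in PPA1 replicates 1 to 3. As for LSU2, PPA1 replicate 1 lay far below the other treated arrays, and here below all controls. Its log2 change was 1.40 (SE 0.85, limma adjusted p = 0.369).

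The other 4 matched genes had log2 changes between -0.59 and 0.80. SIR (250846_at), the sulfite reductase that makes sulfide, measured 371, 344 and 294 in control replicates 1 to 3, and 1027, 475 and 403 in PPA1 replicates 1 to 3. The groups did not overlap, as in 10.8% of all probe sets with PPA1 higher. PPA1 replicate 1 was the highest array, whereas for LSU2 it was the lowest treated array. The log2 change of SIR was 0.80 (SE 0.40, limma adjusted p = 0.287). The ATP sulfurylases, which activate sulfate, gave log2 changes of 0.41 for APS3 (245254_at) and -0.02 for APS4 (249112_at), with limma adjusted p = 0.259 and 0.965. For APS3 too, every PPA1 array lay above every control array. AT1G44790 (261336_at), of the glutathione list, had a log2 change of -0.59 (limma adjusted p = 0.283).

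Over the 6 arrays, the probe sets most like the mean of the 5 markers were 251054_at, with Pearson r = 0.999, and 247323_at, also with r = 0.999. Their log2 changes were 1.98 and 1.66, and neither is paired with a gene in the table used here. Both were picked for likeness on these same arrays, so a rise after PPA1 follows from the choice and no p-value is given. Such likeness was common, as 390 of the 9694 candidates reached r of at least 0.95.

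**Figure D4:**
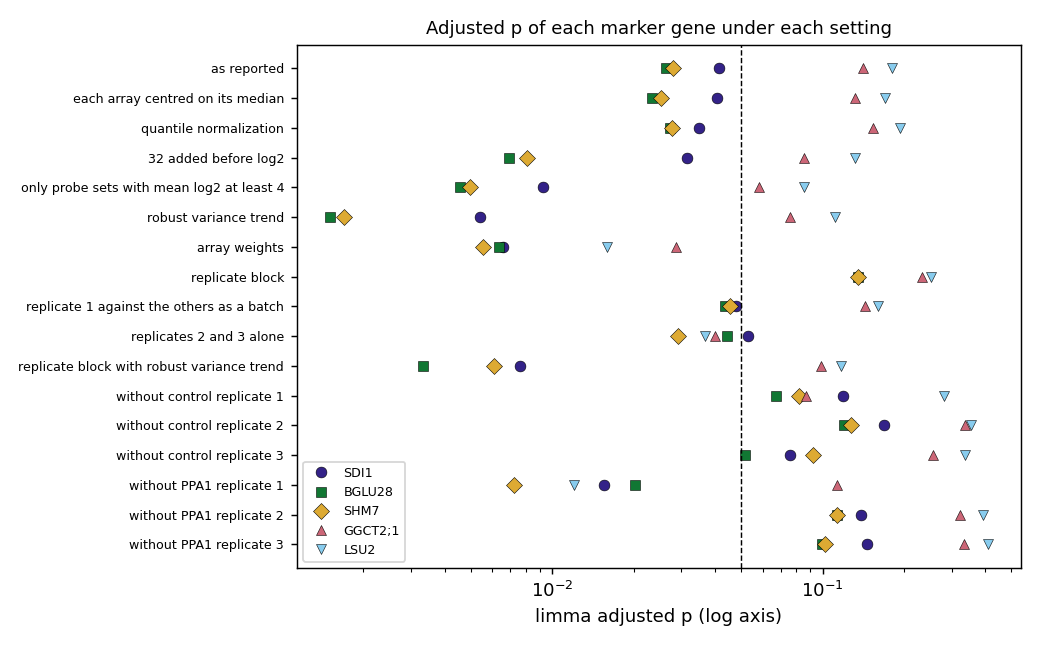
Adjusted p from limma (log axis) for each marker as reported and under each of the 16 other settings, with a dashed line at 0.05. BGLU28, SHM7 and SDI1 lie left of the line in most settings that keep all 6 arrays, while LSU2 and GGCT2;1 cross it with array weights, within replicates 2 and 3 alone and, for LSU2, without PPA1 replicate 1.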

How the data were processed

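The authors deposited 1 normalized intensity per probe set and array, on a linear scale. Per the submitters' processing notes GCRMA was used, which models background from probe sequence; no version or later step is stated. Close to 0 such values scatter once logged. Without detection calls, a signal of 16 was set as the dim limit. Of 22810 probe sets, 64 manufacturer controls were set aside, and log2 signals of the other 22746 were fitted with limma 3.58.1 in R 4.3.3, with treatment as the only term. The number of arrays, 3 per group, limits the precision. Python 3.11.15, pandas 2.3.3 and numpy 2.4.6 served for the rest. Simulated data with independent noise on each array served only to check that the fit returned planted changes. They held no array that stood apart, so they do not bear on the calls given here.

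The platform annotation table gives 1 gene for 13513 tested probe sets, several for 503 and none for 8730. It lists BGLU28. The other 4 markers are not listed there and carry the locus given with their choice. For these loci RefSeq (TAIR10.1) gives the symbols LSU2, SHM7 and ATSDI1, while for GGCT2;1 its symbol is only the locus name. The markers and lists were chosen with earlier results of these data known. The rule named all 5 markers, the matched list genes and the most similar probe sets (mean log2 at least 6, 2 where no gene is paired). Alternatives covered scaling, an added constant, a limit on dim probe sets, the variance model, array weights, blocks and leaving out arrays.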

Additional observations from a re-analysis of the deposited data

How the results depend on the processing

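Against 3 of 5 markers called higher and 0 lower, array weights gave 5 higher, the replicate block 0, and leaving out 1 array 0 to 4. Without PPA1 replicate 1 the count was 4, and without any of the other arrays it was 0. In the remaining settings it was 3 or 4, and 0 were lower in any setting. All 80 log2 changes from the 16 settings were above 0. SHM7 and BGLU28 kept their call in 10 settings each and SDI1 in 9; SDI1 also lost it within replicates 2 and 3 alone (limma adjusted p = 0.0530). LSU2 passed in 3 settings and GGCT2;1 in 2. The replicate block joined to a robust variance trend was chosen after seeing the data and gave 3 calls (3.66% of all probe sets were then higher, against 0.809%). Deviations from the mean of each group gave r = 0.06, 0.03 and 0.02 between same-numbered arrays over all probe sets. Over those with a mean log2 of at least 6 they gave 0.16, 0.24 and 0.15, and arrays of unequal number gave -0.25 to 0.15. Such deviations cancel out within a group, which ties these values together, so they cannot decide whether equal numbers are pairs. No label states what equal numbers have in common. The block leaves fewer residual degrees of freedom, and the cause of the lost calls was not tested. Signal over background limits SDI1, whose controls were all dim.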
